A study of Beta vulgaris subsp. vulgaris with 30 samples.

Results

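The gene nr1 encodes nitrate reductase, and its row of the deposited count table, Bevul.3G009200, was followed here through all 30 libraries of the study. It is 1 of 21587 genes in that table and was taken by its identifier, with earlier results of these data known. The libraries hold messenger RNA of sugar beet (Beta vulgaris subsp. vulgaris) shoots and form 5 groups of 6. The first group stood in ethanol and was then frozen, the second stood in water and was then frozen, the third stood in ethanol without freezing, the fourth stood in water without freezing, and the fifth was sampled before any pretreatment. In the series description, soil-grown seedlings aged 7 days stood with the pot bottoms in 80 mM ethanol for 3 days, and freezing was a night at -2.1 to -3.5 °C. The group labels put 3 days on the pretreatment and 2 h on the freezing temperature, without saying from which moment the 2 h ran. The protocols stored with the single samples describe another plant and schedule instead, namely Arabidopsis aged 14 days, 20 mM ethanol, 6 days and -4.0 °C. Because the counted genes carry beet identifiers on the beet assembly EL10.2, the series description was followed. Apart from the freezing, all groups shared the soil, growth at 22 °C and a day of 16 h light and 8 h dark. No label gives the sampling hour, a batch or the number of plants in a library, and the spread behind every p-value is that between these libraries, which may be partly technical.

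Nitrate reductase catalyses the first step of nitrate assimilation, the reduction of nitrate to nitrite in the cytosol with NADH as the usual electron donor in leaves. The enzyme carries FAD, a haem and a molybdenum cofactor, and its product nitrite is reduced to ammonium in the plastid. In well-studied plants such as tobacco, spinach and Arabidopsis, nitrate and light raise the transcript, its level in leaves follows a daily rhythm, and the enzyme itself is switched off in the dark by phosphorylation and the binding of a 14-3-3 protein. A transcript count therefore gives neither the amount nor the activity of the enzyme. The question the groups pose for this gene is whether its transcript moved over the days of pretreatment, whether ethanol altered it, and whether it moved with freezing.

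In EL10.2 the table places nr1 on the plus strand of chromosome 3, from 1147077 to 1150208, a span of 3132 bases including any introns. The RefSeq annotation of the same assembly lists nr1 from 1147156 to 1150208, so that its start lies 79 bases further in and both models end at the same base. A shared end was found for 7.06% of the 1812 genes of chromosome 3 that could be matched by position, and for the median of these genes RefSeq reached 247 bases further at the 3′ end. The point bears on the counts because Lasy-Seq, the library method, starts from the poly(A) tail, and reads beyond the end of a model are not counted. No other gene of the table overlaps nr1, but RefSeq places a small nucleolar RNA within it, from 1147726 to 1147839. Whether reads of that RNA were captured and counted as nr1 was not tested.

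nr1 was well covered. Between 472 reads, in ethanol replicate 4, and 2995 reads, in replicate 5 of the group frozen after ethanol, fell on it, in libraries with totals of 3379082 to 17868082. Counting error alone was thus 1.83 to 4.60% of a library's value (the square root of the count, as a share of the count). The coefficient of variation between libraries was 23.4% after ethanol and freezing, 20.1% after water and freezing, 11.9% after ethanol, 7.99% after water and 23.6% before pretreatment. The spread within each group was therefore mostly not counting error. The libraries of the groups held without freezing lay closer together than those of the frozen groups or of the group before pretreatment, a difference in spread that was not tested. In edgeR's model the biological coefficient of variation of nr1 was 0.213, beside a median of 0.202 over the 834 genes with 0.5 to 2 times its mean CPM. By this measure the spread of nr1 was ordinary for genes of its abundance. The model draws each gene's value toward that of genes of like abundance, so part of this likeness is built in.

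Levels below are in CPM, a gene's reads relative to the total of its library, with totals corrected by TMM factors. After ethanol and freezing nr1 ran from 87.9 to 162.6 CPM with a median of 131.2. After water and freezing it ran from 98.9 to 163.4 CPM with a median of 135.8. Without freezing the values were higher. They ran from 138.4 to 200.2 CPM after ethanol, with a median of 181.7, and from 166.5 to 202.0 CPM after water, with a median of 182.7. Before pretreatment the range was the widest, from 85.2 to 178.0 CPM with a median of 142.2. The highest and the lowest of the 30 libraries differed 2.37-fold. By mean and SD (n = 6 each) the groups stood at 126.2 ± 29.5 CPM after ethanol and freezing, 134.4 ± 27.1 CPM after water and freezing, 176.9 ± 21.0 CPM after ethanol, 182.2 ± 14.6 CPM after water and 141.2 ± 33.3 CPM before pretreatment. In order of their means, from high to low, the groups ran water, ethanol, before pretreatment, water and freezing, and ethanol and freezing. No neighbours in this order differed beyond their spread by the tests given below. Fewer cells that express nr1 and less of its RNA per cell cannot be told apart in such bulk samples.

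**Figure D1:**
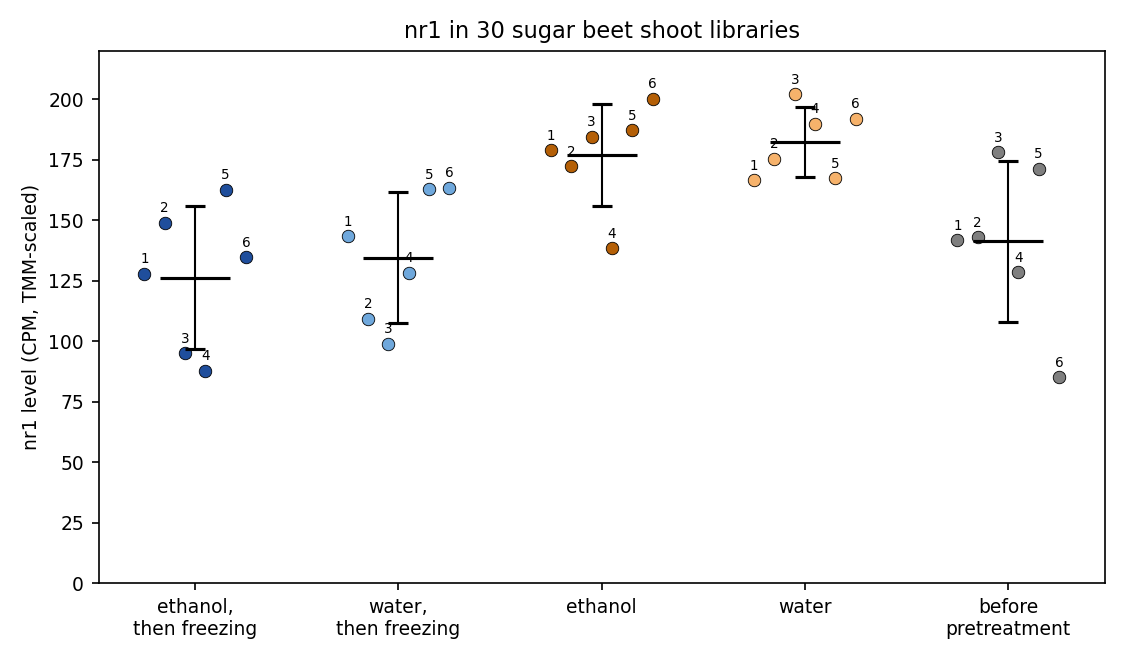
nr1 level in CPM (vertical axis, TMM-scaled, starting at 0) in each of the 30 libraries, by group; points are libraries labelled with their replicate number, the thick line is the group mean and the bars are 1 SD (n = 6). All 6 libraries frozen after water lie at 163.4 CPM or below and all 6 water libraries at 166.5 CPM or above, whereas ethanol replicate 4, at 138.4 CPM, lies among the libraries frozen after ethanol.

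Freezing after ethanol was the comparison between single groups in which nr1 passed the test. nr1 fell by 0.49 on the log2 scale after ethanol and freezing relative to ethanol alone, with a standard error of 0.16 and a 95% interval of -0.81 to -0.16 (adjusted p = 0.0385 in the quasi-likelihood test of edgeR, Benjamini-Hochberg adjusted over all 14128 genes tested). On the linear scale nr1 was lower by 28.7%, with an interval of 10.7 to 43.1%. Of the 36 pairs of a frozen and an unfrozen library, the frozen one was the lower in 34. The exceptions involved ethanol replicate 4, whose 138.4 CPM lay below the 149.0 CPM and 162.6 CPM of frozen replicates 2 and 5. That library has the lowest total of the study and lies alone on the second principal component, at 154.43. Without it the fall was 0.58 and the adjusted p 0.0171. The call was not a rare one, since 6.53% of the genes tested were called lower in this comparison, and nr1 ranked 1571 by p-value. It was lost without any 1 of ethanol replicates 1, 2, 3, 5 and 6 (adjusted p 0.0606, 0.0533, 0.069, 0.0706 and 0.0885) or of frozen replicates 1, 3 and 4 (0.0613, 0.107 and 0.121). Over all 20 alternatives the adjusted p ranged from 0.0131 to 0.19. Among them, an exact two-sided permutation test gave p = 0.00866. After adjustment over the 8 pairs of groups, and not over all genes, it was 0.0346.

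Freezing after water gave a difference of about the same size that did not pass the same test. nr1 stood at 98.9, 109.3, 128.2, 143.4, 162.9 and 163.4 CPM after water and freezing, against 166.5, 167.3, 175.4, 189.9, 191.9 and 202.0 CPM after water. The 2 groups did not overlap, though the highest frozen library and the lowest water library were only 3.08 CPM apart. The log2 change was -0.44 ± 0.16 (SE), with a 95% interval of -0.76 to -0.11 and an adjusted p of 0.0746 by edgeR. An exact two-sided permutation test over these 12 libraries gave p = 0.00216, the smallest value that 6 against 6 allows, and 0.0173 after adjustment over the 8 pairs of groups. Any 2 groups of 6 without overlap give this p, so it adds nothing to the lack of overlap. Groups lay apart in the lower direction for 3.54% of the genes tested, and 6.09% of them were called lower by edgeR. nr1 was called by DESeq2 (adjusted p = 0.0294), when the other 3 groups were left out of the fit (0.0399) and without frozen replicate 6 (0.0444). Over its 20 alternatives the adjusted p ranged from 0.0173 to 0.328. The lowest is that of the permutation test, adjusted over the 8 pairs of groups and not over all genes. Frozen replicate 6 had the highest nr1 level of its group, 163.4 CPM. The first principal component sets the 12 frozen libraries apart from the others. On it, frozen replicate 6 lay nearest to the unfrozen libraries, at 13.82 beside 35.9 to 59.77 for the other libraries frozen after water. Frozen replicate 5 had nearly the same nr1 level, 162.9 CPM, but lay at 48.72 on this component. Without replicate 5 the adjusted p was 0.0506 by edgeR. Whether the place on this component bears on nr1 was not tested.

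The drop with freezing averaged over both pretreatments rested on 12 frozen and 12 unfrozen libraries. It was 0.46 on the log2 scale with a standard error of 0.11 and an interval of -0.69 to -0.23 (adjusted p = 0.00216 by edgeR), which is 27.5% lower with an interval of 15.0 to 38.1%. It passed the threshold in all 31 alternatives, with adjusted p values of 0.000225 to 0.0497, the highest with library totals as the only scaling. In this comparison 10.2% of all genes tested were called lower and 10.9% higher. Among the 5406 genes that averaged 10 CPM or more, 19.1% had a more negative difference of mean log2 CPM (with 1 added to each value) than nr1 after ethanol and 21.5% after water. nr1 was thus among the genes that were lower in frozen shoots, but far from those with the largest differences.

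The size of the freezing difference after ethanol could not be told from that after water. The response after ethanol minus the response after water was -0.05 ± 0.23 (SE) on the log2 scale, with an interval of -0.51 to 0.41 and an adjusted p of 1 by edgeR. The interval holds differences about as large as the responses themselves, so it does not show that the responses were alike. For the same contrast edgeR called 0% of the genes, and DESeq2 called 0. By edgeR 406 of the 14128 tested had an unadjusted p under 0.05, a smaller share than the 0.05 awaited if no gene differed.

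**Figure D2:**
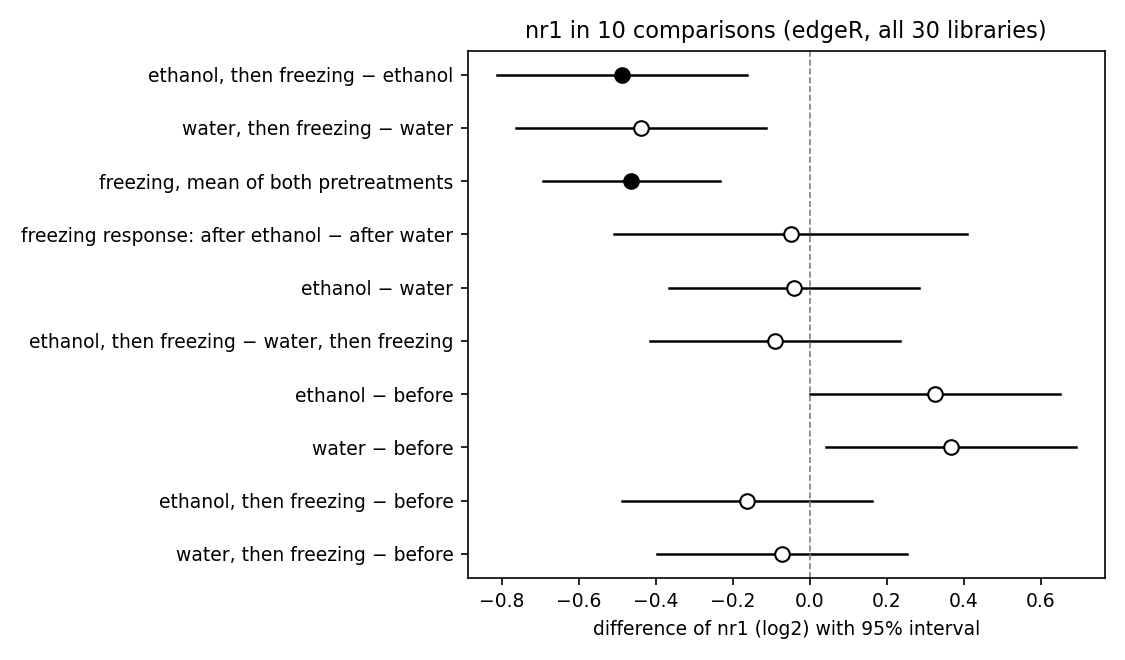
Difference of nr1 between groups on the log2 scale (horizontal axis) in 10 comparisons of 1 edgeR fit to all 30 libraries; points are estimates, lines are 95% intervals, and filled points have an adjusted p under 0.05. The 3 freezing comparisons lie between -0.49 and -0.44, those of ethanol against water lie at -0.04 and -0.09, and the 2 pretreatments against the start lie at 0.33 and 0.37.

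Ethanol was not seen to alter nr1 before or after freezing. In unfrozen shoots the ethanol group stood at 176.9 ± 21.0 CPM and the water group at 182.2 ± 14.6 CPM (SD, n = 6 each), a log2 difference of -0.04 ± 0.16 (SE) with an interval of -0.36 to 0.28 and an adjusted p of 1 by edgeR. Of the 6 ethanol libraries, only replicate 4 lay below all the water libraries, and without it the difference was 0.02. In frozen shoots the ethanol group stood at 126.2 ± 29.5 CPM and the water group at 134.4 ± 27.1 CPM, a log2 difference of -0.09 ± 0.16 with an interval of -0.41 to 0.23 and an adjusted p of 1. In these comparisons 0.00708% and 0.106% of all genes passed the threshold. The intervals hold both lower and higher levels with ethanol, and so do not show that the pretreatments acted alike on nr1.

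Over the days of pretreatment nr1 had higher means, without passing the test. Ethanol libraries exceeded those taken before pretreatment by 0.33 ± 0.16 (SE) on the log2 scale (interval 0.00 to 0.65, adjusted p = 0.321 by edgeR). Water libraries exceeded them by 0.37 ± 0.16 (interval 0.04 to 0.69, adjusted p = 0.26 by edgeR). These comparisons share the 6 libraries taken at the start, so their likeness is no independent evidence. By the series description the pretreated seedlings were also 3 days older, and no label gives the sampling hour. Pretreatment, age and hour cannot be told apart in these comparisons. The exact two-sided permutation tests gave 0.0411 for ethanol and 0.0195 for water, or 0.0822 and 0.052 after adjustment over the 8 pairs of groups. In these comparisons edgeR called 3.77% of all genes after ethanol and 3.09% after water. Before pretreatment, replicate 6 held 85.2 CPM, the lowest value of all 30 libraries, and replicates 3 and 5 held 178.0 and 171.2 CPM, within the range of the water group. In the fits without 1 library, the difference from the start ran from 0.21 to 0.40 for ethanol and from 0.26 to 0.44 for water, and none of these 24 fits passed the threshold.

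Shoots that were pretreated and then frozen did not differ from the start beyond their spread. The log2 difference was -0.16 ± 0.16 (SE) after ethanol and freezing (interval -0.49 to 0.16, adjusted p = 0.623 by edgeR) and -0.07 ± 0.16 after water and freezing (interval -0.40 to 0.25, adjusted p = 0.857). Of all genes, 15.1% and 14.6% were called in these comparisons. Here too, age and sampling hour cannot be told apart from pretreatment and freezing. The signs of both differences depend on the scaling, as the values below show. The same order of the 5 group means was found in 2% of the genes tested (282 genes).

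The scale on which libraries are compared changed the size of the freezing difference and of the differences from the start. With library totals alone the log2 change of nr1 was -0.33 after ethanol and freezing relative to ethanol (adjusted p = 0.19) and -0.27 after water and freezing relative to water (adjusted p = 0.328 by edgeR). Against the start it was 0.11 after ethanol and freezing and 0.19 after water and freezing, so both signs turned. Without freezing, the differences from the start were larger than with TMM. They were 0.44 after ethanol (adjusted p = 0.12 by edgeR) and 0.46 after water (adjusted p = 0.116 by edgeR). On that scale the whole distribution moved. The median difference over the same 5406 genes was 0.17 for freezing after ethanol and 0.18 after water, beside 0.01 and 0.00 with TMM. Another scaling moves all genes by nearly the same amount, so the distance of nr1 from the median gene is fixed almost by construction. It was -0.51 with library totals and -0.52 with TMM for freezing after ethanol, and -0.46 on each scale after water. With library totals 1365 genes were called higher and 641 lower for freezing after ethanol, beside 817 and 923 with TMM, and after water 1249 and 574, beside 709 and 861. For the average over both pretreatments the calls were 2536 higher and 988 lower, beside 1537 and 1446.

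The share of reads in the most abundant genes moved with freezing. The top 5 genes of each library took 11.5 to 14.7% of the reads after ethanol and freezing and 11.1 to 14.5% after water and freezing, beside 15.3 to 16.5% after ethanol, 14.4 to 17.6% after water and 16.3 to 18.9% before pretreatment. Their part in the result was not tested. The authors' deposited table, in which counts are divided by a size factor per library, gave nr1 values of 798 to 1466 after ethanol and freezing and 897.5 to 1536 after water and freezing, against 1337 to 1861 after ethanol and 1547 to 1906 after water. As with TMM, the groups lay apart after water and overlapped after ethanol. With library totals they overlapped in both cases, as the highest library frozen after water stood at 191.0 CPM and the lowest water library at 152.0 CPM.

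**Figure D3:**
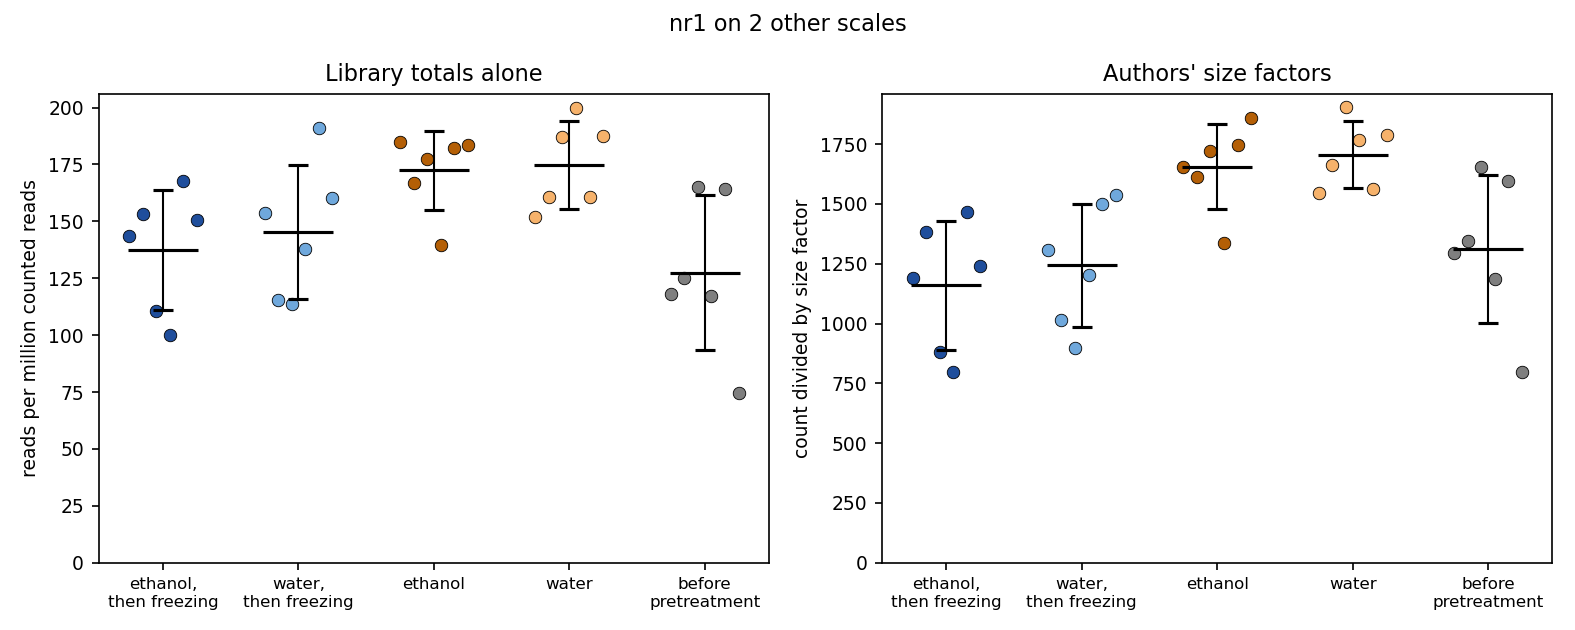
nr1 in each library on 2 other scales, CPM from library totals alone (left panel) and the authors' counts divided by size factors (right panel), both axes starting at 0; points are libraries, the thick line is the group mean and bars are 1 SD (n = 6). On the left the group frozen after water (113.5 to 191.0) overlaps the water group (152.0 to 199.9), and on the right it lies below it (at most 1536 beside at least 1547).

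Since the sampling hour is not labelled and nitrate reductase transcripts follow a daily rhythm in other plants, the effect of freezing on nr1 cannot be told apart from that of the hour. The same holds for darkness and for any added time after pretreatment, as freezing was a night in the series description. Of the genes with a symbol in the RefSeq annotation, 2 belong to the daily clock. BTC1, a pseudo-response regulator that controls bolting in beet (Bevul.2G112000), stood at 44.8 ± 9.38 CPM after ethanol and freezing and 37.9 ± 5.88 CPM after ethanol. It stood at 44.2 ± 11.3 CPM after water and freezing, 29.8 ± 4.98 CPM after water and 42.4 ± 7.59 CPM before pretreatment. Averaged over both pretreatments, BTC1 was higher with freezing by 0.41 ± 0.12 (SE) on the log2 scale (adjusted p = 0.0123 by edgeR). The difference passed the test after water (0.57 ± 0.17, adjusted p = 0.0232 by edgeR) but not after ethanol (0.24 ± 0.17, adjusted p = 0.447). The response of BTC1 after ethanol minus that after water was -0.32 ± 0.24 (SE) and did not pass the test. The 2 responses of BTC1 were thus not shown to differ. PRR7, another pseudo-response regulator (Bevul.7G065600), had an averaged log2 difference of 0.29 ± 0.20 (adjusted p = 0.364). In this average BTC1 thus differed in the opposite direction to nr1, and its part in the result was not tested.

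The genes whose levels followed nr1 most closely were sought among the 5405 others that averaged 10 CPM or more, by Pearson's r of log2 CPM over the 30 libraries. The highest r values, all between 0.80 and 0.82, belonged to Bevul.9G158000, Bevul.8G056700, Bevul.3G175200, Bevul.9G189500 and Bevul.9G145400, none of which has a gene name in the annotation used here. They are the top of a long list, with 79 genes above 0.7, and the libraries share their depth and scaling factors with all genes, so r is a description. With library totals as the scale the same 5 had r values of 0.67 to 0.80. Deviations from the group means, which are part of the r that chose these genes, correlated at 0.72 to 0.80. Bevul.3G175200 had the highest of these, 0.80, although it differed little between groups: it stood at 192 ± 20.6 CPM after ethanol and freezing and 229 ± 25 CPM after ethanol.

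Because these 5 genes were picked for following nr1 in the same libraries, their differences between groups are given as levels, with no test. Bevul.8G056700 (chromosome 8, 11309032 to 11313948) stood at 178 ± 19.7 CPM after ethanol and freezing and at 164 ± 37.7 CPM after water and freezing, against 271 ± 9.05 CPM after ethanol, 248 ± 13.4 CPM after water and 183 ± 32.7 CPM before pretreatment. Bevul.9G189500 (chromosome 9, 50296412 to 50307631) stood at 12.9 ± 4.39 CPM after ethanol and freezing and at 14.6 ± 7.5 CPM after water and freezing, against 32.4 ± 5.07 CPM after ethanol and 34.7 ± 7.19 CPM after water. By fold, its difference between frozen and unfrozen shoots was the largest of the 5. Bevul.9G158000 (chromosome 9, 46963127 to 46966969) stood at 18.7 ± 12.9 CPM after ethanol and freezing and at 17.8 ± 10.1 CPM after water and freezing, against 42.4 ± 6.57 CPM after ethanol and 31.8 ± 11.5 CPM after water. Bevul.9G145400 (chromosome 9, 45262866 to 45271965) lay closest to nr1 in its group means, with 60.6 ± 7.88 CPM after ethanol and freezing and 61.5 ± 21.7 CPM after water and freezing, against 77.7 ± 14.4 CPM after ethanol and 78.8 ± 7.2 CPM after water. Over the 5 group means its r with nr1 was 0.98, and those of the other 4 genes were 0.89 to 0.94.

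**Figure D4:**
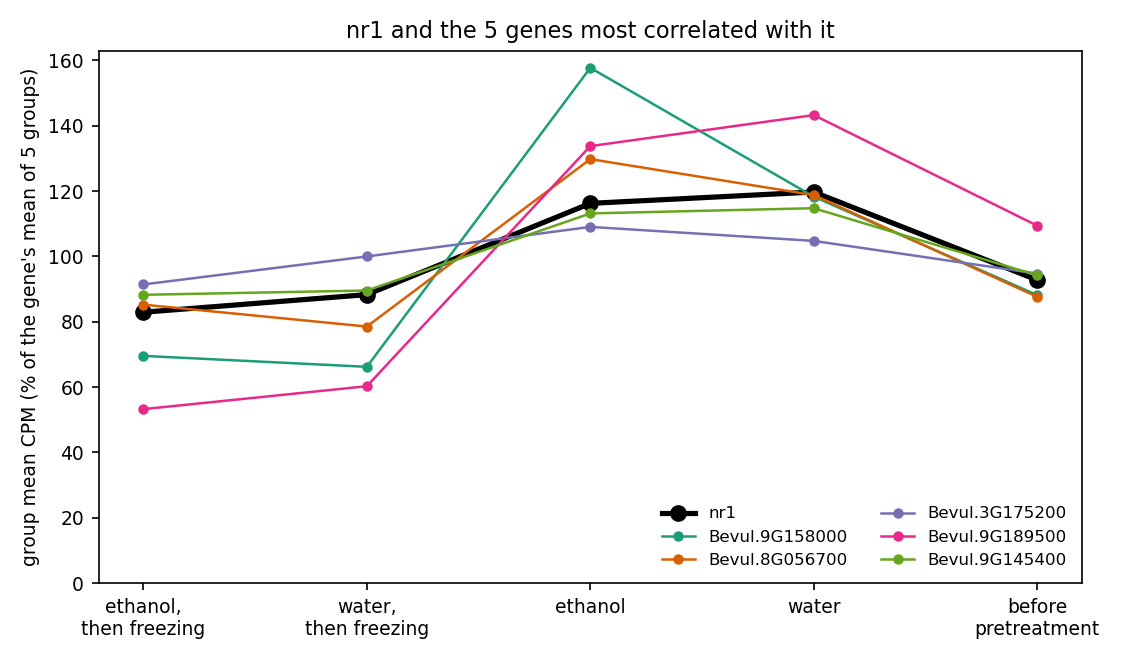
Group mean CPM of nr1 (thick black line) and of the 5 genes with the highest Pearson r to it, each as a percentage of that gene's mean over the 5 groups (vertical axis, starting at 0; lines join the groups of 1 gene only as a guide to the eye). The 5 genes were chosen for following nr1, so a likeness of their group means to those of nr1 comes with the choice. The order of the groups is not that of nr1 in all of them. Unlike nr1, Bevul.8G056700 had a higher mean after ethanol (271 CPM) than after water (248 CPM). Bevul.3G175200 varies least, from 192 to 229 CPM.

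The genes beside nr1 on chromosome 3 were scarcely expressed. Bevul.3G009100, on the same strand 4499 bases before nr1, had at most 87 reads in a library and group means of 1.89 to 3.97 CPM. Its averaged log2 difference with freezing was 0.70 ± 0.51 (SE), with an adjusted p of 0.395 by edgeR. Bevul.3G009000, further in the same direction, had 0 reads in all libraries. Beyond the other end, Bevul.3G009300, whose nearer end lies 14718 bases away, on the opposite strand, had reads in 15 libraries, at most 31 in any, and was not tested, and Bevul.3G009400, with group means of 0.617 to 1.73 CPM, had an averaged log2 difference of -0.05 ± 0.62 (adjusted p = 0.972). Their reads were too few to show a change of the size seen for nr1. Genes for nitrate uptake, nitrite reduction and ammonium assimilation, and markers of the shoot label, were not analysed here, because the annotation used here gives symbols for few genes and no product names.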

How the data were processed

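The submitters' processing notes list HISAT2 and featureCounts beside bcl2fastq, Trimmomatic and DESeq2, and name the build TAIR10. Versions and the strand setting are not given in the sources used here. The deposited counts are whole reads per gene, with EL10.2 chromosomes per the file headers. The authors' second deposited table holds a signal, each count divided by a library's size factor (relative spread of the factor at most 1.2e-09). Groups came from the sample titles. With R 4.3.3 and edgeR 4.0.16, genes were kept by filterByExpr (14128 genes, 99.92% of reads), scaled by TMM and fitted by quasi-likelihood with 5 group means over 30 libraries. All 10 comparisons are contrasts of this fit, two-sided, Benjamini-Hochberg adjusted over all genes, threshold 0.05; standard errors are the log2 change over the square root of F. Log2 CPM used a prior count of 2. Exact permutation tests used Python 3.11.15 and numpy 2.4.6. Alternatives were relative log expression scaling, library totals, no filter, the replicate number as a block, compared groups only, DESeq2 1.42.0, each library left out and, added after the data were seen, 2 libraries left out together. RefSeq names were matched by position (each gene covering at least 0.5 of the other). Named genes were nr1, the 5 most correlated genes, 2 neighbours on each side and the clock genes. Members and lists were chosen with earlier results of these data known. Protein alignment, promoter motifs and pathway lists that had been planned could not be run with the annotation at hand.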

Additional observations from a re-analysis of the deposited data

How the results depend on the processing

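The averaged freezing difference of nr1 kept its direction and its side of the threshold in all 31 alternatives (log2 -0.52 to -0.30). For freezing after ethanol the call was lost with library totals alone (-0.33) and without the low-count filter (-0.48, adjusted p = 0.0516), and without single libraries it ran from -0.58 to -0.40. For freezing after water nr1 passed in a fit of the compared groups (-0.47) and by DESeq2 (-0.46). Freezing after ethanol (-0.51) and after water (-0.46) each passed the exact permutation test, which was adjusted only over the 8 pairs of groups. Without single libraries the difference after water ran from -0.50 to -0.36. Signs turned for differences that passed no test: with library totals against the start (0.11 after ethanol and freezing, 0.19 after water and freezing), and without both ethanol replicate 4 and water replicate 3 for ethanol against water (0.046). Without single libraries, ethanol minus water ran from -0.081 to 0.023, the difference between the freezing responses from -0.134 to 0.036, and water and freezing minus the start from -0.182 to 0.0052. Ethanol minus water in frozen shoots ran from -0.176 to -0.0055, and ethanol and freezing minus the start from -0.273 to -0.077, so that single libraries moved these differences by more than 1.5 times. No pairing of libraries by replicate number was seen: over all genes tested, deviations of same-numbered libraries correlated at -0.038 to 0.054 in 48 pairs. With the replicate block nr1 changed by -0.50 for freezing after ethanol (adjusted p = 0.0381) and -0.45 after water (0.0678), and no call changed. Calls over all genes for ethanol against water numbered 0 higher and 1 lower, of 14128 genes tested. They were 3 and 5 of 19320 by DESeq2 and 2 and 3 of 12073 when other groups were left out. In frozen shoots the calls were 3 and 12 of 14128. They were 12 and 24 of 11176 by DESeq2 and 3 and 4 of 12452 when other groups were left out. Single libraries left out gave 0 to 2 calls before freezing and 4 to 21 lower calls after it. For ethanol against the start the calls were 243 and 289, beside 387 and 164 with library totals. DESeq2 gave 373 and 369, of 11176 genes tested. For water against the start they were 231 and 206, and DESeq2 gave 347 and 302 of 10802. Library totals moved the share of lower calls for water to 29.5%, beside 47.1%. For the frozen groups against the start, library totals gave 2066 and 596 after ethanol, beside 1011 and 1125, and 1882 and 570 after water, beside 982 and 1086. Depth did not limit nr1 itself, whose counting error was at most 4.60%, but limited its neighbours.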
